A study of Mus musculus with 16 samples.

Results

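De novo lipogenesis is the pathway by which the liver builds fatty acids from carbohydrate. Its genes were taken as the 10, of the 41079 genes in the deposited count table, whose symbols are Acly, Acaca, Acacb, Fasn, Scd1, Elovl6, Me1, Srebf1, Mlxipl and Thrsp. The first 7 encode enzymes, and Srebf1, Mlxipl and Thrsp encode regulators. Citrate exported from mitochondria is split into acetyl-CoA in the cytosol, acetyl-CoA carboxylase turns it into malonyl-CoA, and fatty acid synthase joins these units into palmitate, which is then elongated and desaturated. The pathway is known for its response to feeding: insulin acts largely through the transcription factor SREBP-1c, and sugar through ChREBP. Glucagon, the fasting hormone, is known to oppose it.

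The study asked how loss of the glucagon receptor from the liver affects lifespan, and sequenced polyadenylated liver RNA from 16 old mice. LKO mice carried Gcgr, the gene of that receptor, with loxP sites around part of its exons, together with an Albumin-Cre transgene. The paper describes them as lacking the receptor in the liver. It also reports that, among tissues known to express Gcgr, its mRNA was lower only in the liver, for males and females of 20 to 22 months. CRE- mice were the controls: they had the floxed allele as well, but no Cre, so their receptor was intact. There were 4 male CRE-, 4 male LKO, 4 female CRE- and 4 female LKO mice, on a C57BL/6J background and 20 to 22 months old, kept on standard chow. The labels number the 4 mice of each group as biological replicates. Food was freely available, and no fast before dissection is stated for these livers. The time of day of dissection is not given.

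The deposited table gives raw read counts per gene from bulk liver. Totals ran from 33268424 to 56488920 counts per library. Values within a gene are given as CPM, counts relative to library sizes scaled by TMM (a trimmed mean over genes), and levels of different genes are compared as RPKM, which also divides by the length of the gene in kilobases. LKO livers were compared with CRE- livers of the same sex by the quasi-likelihood test of edgeR, with p-values adjusted by the Benjamini-Hochberg method over all 16742 genes that had enough counts to be tested, and a gene passed at an adjusted p under 0.05. All 10 lipogenesis genes were tested. Their lowest count in any library was 387, for Thrsp in a female LKO liver, so counting error is small beside the spread between mice.

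The targeted gene was examined first. Gcgr was at 190.4, 193, 127 and 189.6 CPM in male CRE- livers (replicates 1 to 4, the order used throughout) and at 117, 136, 129.9 and 160.3 CPM in male LKO livers. The male groups overlapped because CRE- replicate 3 lay among the LKO values. In females it was at 162, 208, 201 and 180.0 CPM in CRE- livers and at 48.8, 132, 119 and 93.6 CPM in LKO livers, and every LKO value lay below every CRE- value. The log2 fold change was -0.37 (SE 0.24) in males (edgeR quasi-likelihood test, Benjamini-Hochberg adjusted p = 0.671) and -0.93 (SE 0.25) in females (edgeR quasi-likelihood test, Benjamini-Hochberg adjusted p = 0.0443). Leaving out any 1 female other than LKO replicate 2 took edgeR's Benjamini-Hochberg adjusted p above the threshold, up to 0.136 (0.0225 without LKO replicate 2), and over 8 other settings it was 0.00807 to 0.132. These values count reads over the whole gene. They may include reads from undeleted exons and from cells other than hepatocytes, and this was not tested.

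Of the 10 lipogenesis genes, 9 had a log2 fold change of LKO against CRE- livers below 0 in males, all but Mlxipl, and 10 did in females. In males 3 of 10 passed, Acly, Acacb and Scd1, where 0.454% of all genes tested did. All 3 fell, and of all genes 0.233% fell and 0.221% rose. In females 5 of 10 passed, Acly, Acacb, Fasn, Scd1 and Srebf1, where 4.24% of all genes tested did. All 5 fell, and of all genes 2.15% fell and 2.09% rose. Acly, Acacb and Scd1 fell in both sexes, as did 0.119% of all genes tested. The median log2 fold change of the 10 genes was -1.20 in males and -1.35 in females, and over all genes tested it was -0.01 and 0.04. At an unadjusted p under 0.05, 6 of the 10 were lower in males and 9 in females, against 4.74% and 9.14% of all genes, while 9.53% and 21.4% of all genes passed this looser limit in either direction. In bulk liver, fewer cells of a type and less RNA per cell cannot be told apart.

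These counts changed when single livers were left out, as did those over all genes. In males 2 of the 10 genes, Acacb and Scd1, passed without any 1 male other than LKO replicate 2, and 4 passed without that liver. Over all genes those 8 fits called 26 to 49, beside 76. In females Scd1 alone passed without CRE- replicate 3, CRE- replicate 4 or LKO replicate 1, while 7 passed without LKO replicate 2. The other 4 female fits gave 4, namely Acly, Acacb, Fasn and Scd1. Over all genes edgeR called 122, 110 and 237 in the first 3 of these fits, 1310 without LKO replicate 2 and 87 to 536 in the other 4, beside 710. Without CRE- replicate 3 the log2 fold changes were -1.14 for Acly, -1.29 for Acacb and -1.43 for Fasn, beside -1.18, -1.31 and -1.45. DESeq2 called 5 of the 10 in males and 8 in females, and limma-voom 2 and 6. Of all 16742 genes DESeq2 called 339 and 1816, and limma-voom 148 and 1976.

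Every male LKO value lay below every male CRE- value for 4 of the 10 genes, Acly, Acacb, Fasn and Scd1, as for 2.92% of all genes tested, and for none did every LKO value lie above, as for 3.57%. In females this held for 7 of the 10, these 4 with Elovl6, Srebf1 and Thrsp, as for 6.42% of all genes tested, and again none lay wholly above, as for 5.2%. The 4 male genes were thus apart in both sexes, as were 0.633% of all genes tested. Together the 10 genes took 1.92, 2.88, 4.22 and 1.94 percent of the counts in the male CRE- livers and 0.630, 0.938, 0.722 and 0.779 percent in the male LKO livers. In females the shares were 1.28, 1.39, 1.56 and 1.53 percent in CRE- livers and 0.349, 0.517, 0.540 and 0.551 percent in LKO livers. The highest LKO share in either sex was below the lowest CRE- share of that sex, and Scd1 made up most of each control share.

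**Figure D1:**
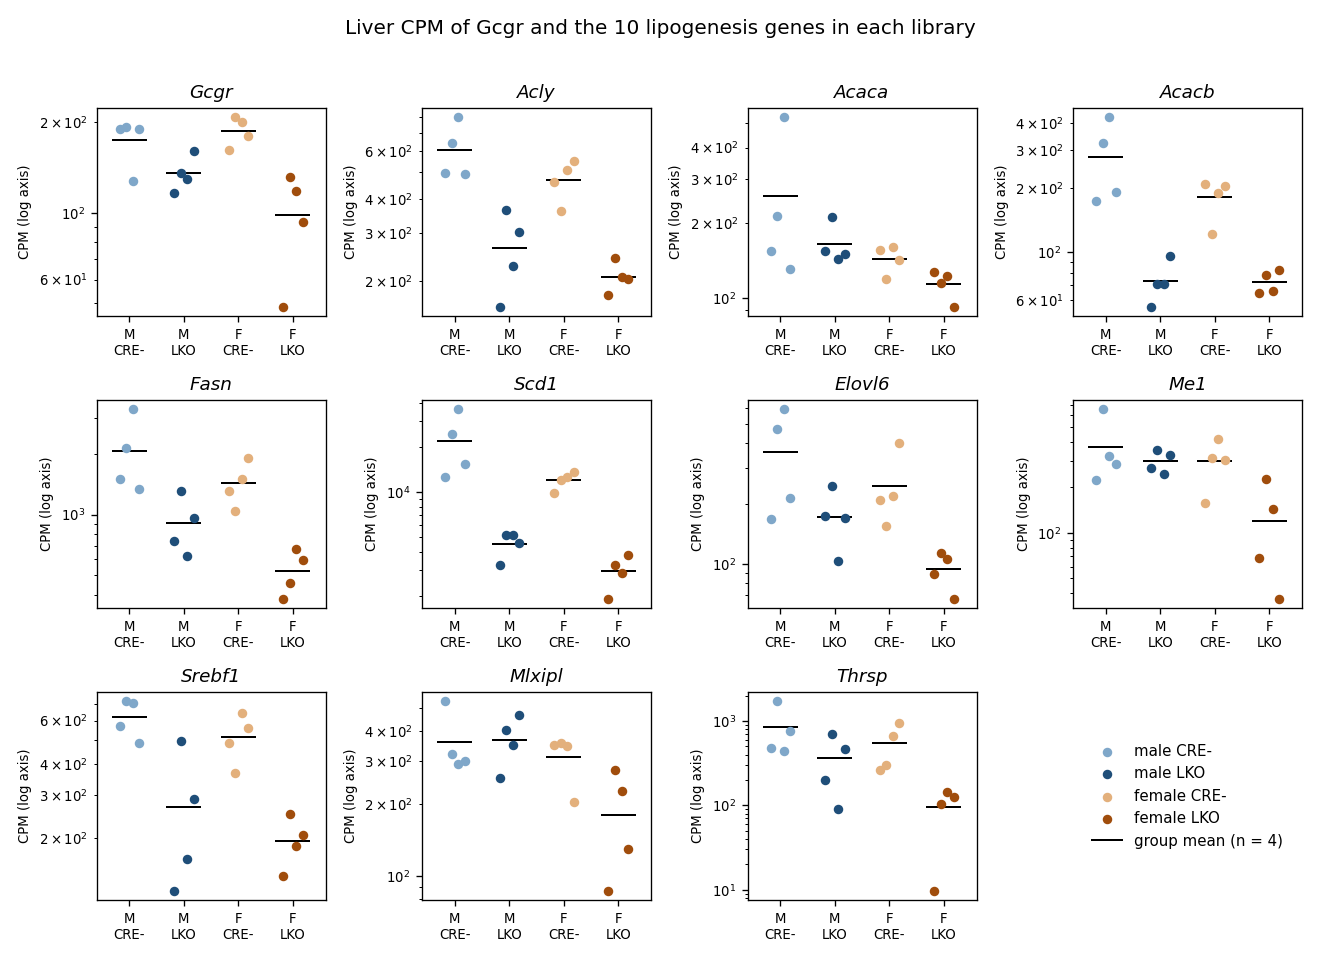
CPM (log axis) of Gcgr and the 10 lipogenesis genes in each of the 16 libraries, by group (M, male, and F, female), where each point is a liver and each black line the mean of 4. For Scd1 the male LKO livers sit between 3275 and 5167 CPM, below all male CRE- livers, while for Mlxipl the male groups overlap.

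Acly encodes ATP citrate lyase, which makes cytosolic acetyl-CoA from citrate. On GRCm39 it lies on chromosome 11 from 100367178 to 100418826, on the minus strand. It was at 496, 641, 797 and 492 CPM in male CRE- livers and at 161, 364, 226 and 301 CPM in male LKO livers. In females it was at 459.8, 361, 512 and 550.3 CPM in CRE- livers and at 177, 242, 207 and 203 CPM in LKO livers. The groups did not overlap in either sex, male CRE- replicate 3 was the highest library and male LKO replicate 1 the lowest. Acly fell in males by 2.31-fold (log2 fold change -1.21, SE 0.24, edgeR quasi-likelihood test, Benjamini-Hochberg adjusted p = 0.0414) and in females by 2.27-fold (log2 fold change -1.18, SE 0.24, edgeR quasi-likelihood test, Benjamini-Hochberg adjusted p = 0.02). The male result was close to the threshold: without any 1 male mouse other than LKO replicate 2, edgeR's Benjamini-Hochberg adjusted p was 0.0504 to 0.121, and without female CRE- replicate 1, 2 or 3 it was 0.0501 to 0.059. Over 8 other settings it was 0.000247 to 0.0808, above 0.05 with limma-voom and with males fitted alone. The female result passed in 5 of 8 such fits, and the edgeR Benjamini-Hochberg adjusted p was 0.0592 without CRE- replicate 3, 0.0636 without CRE- replicate 4 and 0.0516 without LKO replicate 1.

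Acetyl-CoA carboxylase has 2 genes: Acaca encodes the cytosolic form, whose malonyl-CoA feeds synthesis, and Acacb the form at the mitochondrial surface, whose malonyl-CoA restrains fatty acid import for oxidation. Acacb (chromosome 5, 114284748 to 114388822, plus strand) was at 174, 323, 426 and 191 CPM in male CRE- livers and at 55.8, 70.7, 71.2 and 96.4 CPM in male LKO livers. Its female values were 207, 122, 189 and 204 CPM in CRE- and 64.7, 78.0, 66.3 and 82.8 CPM in LKO livers. No LKO liver of either sex reached 100 CPM and no CRE- liver was below it. Acacb fell by 3.79-fold in males (log2 fold change -1.92, SE 0.28, edgeR quasi-likelihood test, Benjamini-Hochberg adjusted p = 0.00323) and by 2.48-fold in females (log2 fold change -1.31, SE 0.27, edgeR quasi-likelihood test, Benjamini-Hochberg adjusted p = 0.0201). The male result passed without any 1 of the male mice, whereas in females the edgeR Benjamini-Hochberg adjusted p was 0.0569 without CRE- replicate 3, 0.063 without CRE- replicate 4 and 0.052 without LKO replicate 1.

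Acaca (chromosome 11, 84020461 to 84292477, plus strand) did not pass in either sex. It was at 154, 213, 529 and 131 CPM in male CRE- livers and at 155, 211, 144 and 151 CPM in male LKO livers. Male CRE- replicate 3 stood far above the rest, and the other male values of both groups were mixed. In females Acaca was at 156, 119.9, 159.8 and 142 CPM in CRE- livers and at 127, 115, 123 and 92.8 CPM in LKO livers, with 2 LKO livers below the lowest CRE- liver. The log2 fold change was -0.64 in males (95% interval -1.33 to 0.06, edgeR quasi-likelihood test, Benjamini-Hochberg adjusted p = 0.568) and -0.33 in females (95% interval -1.03 to 0.36, edgeR quasi-likelihood test, Benjamini-Hochberg adjusted p = 0.611). Without male CRE- replicate 3 the male value was -0.02. The mean levels of Acaca and Acacb in control livers were 24.1 and 27.4 RPKM in males and 13.5 and 17.8 RPKM in females. Male CRE- replicate 3 was at 49.6 RPKM for Acaca and 42.0 RPKM for Acacb, and the other 3 male controls at 12.3 to 20.0 and 17.1 to 31.8 RPKM. In LKO livers the mean level of Acaca was 15.5 RPKM in males and 10.7 RPKM in females, and that of Acacb 7.24 and 7.19 RPKM. The difference between the fold changes of these genes was not tested.

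Fasn encodes fatty acid synthase, the multifunctional enzyme that makes palmitate (chromosome 11, 120696784 to 120715992, minus strand). It was at 1503, 2134, 3327 and 1341 CPM in male CRE- livers and at 738, 1303, 621 and 966 CPM in male LKO livers. The highest male LKO liver, replicate 2, lay just under the lowest male CRE- liver, replicate 4. Female Fasn was at 1313, 1043, 1496 and 1901 CPM in CRE- livers and at 383, 459.8, 674 and 593 CPM in LKO livers, which were clearly apart. The male log2 fold change of -1.19 (SE 0.31) did not pass (edgeR quasi-likelihood test, Benjamini-Hochberg adjusted p = 0.127), while DESeq2's Wald test gave a Benjamini-Hochberg adjusted p of 0.0108, the lowest of a range up to 0.216 over the 8 other settings. In females Fasn fell by 2.73-fold (log2 fold change -1.45, SE 0.31, edgeR quasi-likelihood test, Benjamini-Hochberg adjusted p = 0.0231). Its edgeR Benjamini-Hochberg adjusted p was 0.0669 without female CRE- replicate 3, 0.0691 without CRE- replicate 4, 0.0655 without LKO replicate 1 and 0.0501 with females fitted alone, the highest of 8 other settings from 0.000406.

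Scd1 encodes stearoyl-CoA desaturase, which makes oleate and palmitoleate from saturated fatty acids (chromosome 19, 44382889 to 44396148, minus strand). It was the most abundant of the 10 genes in every group, with a mean of 4589 RPKM in male CRE- and 2496 RPKM in female CRE- livers. Scd1 was at 12655, 24681, 36017 and 15433 CPM in male CRE- livers and at 3275, 5136, 5167 and 4539 CPM in male LKO livers. In females its values were 9839, 12131, 12617 and 13706 CPM in CRE- and 1935, 3239, 2891 and 3766 CPM in LKO livers. The groups stood far apart in both sexes, and male CRE- replicate 3, in which Scd1 took 3.50% of all counts, was the highest. Scd1 fell by 4.90-fold in males (log2 fold change -2.29, SE 0.32, edgeR quasi-likelihood test, Benjamini-Hochberg adjusted p = 0.0029) and by 4.08-fold in females (log2 fold change -2.03, SE 0.32, edgeR quasi-likelihood test, Benjamini-Hochberg adjusted p = 0.0055). It passed in both sexes without any 1 mouse of the sex compared and under each of the 8 other settings tried. Scd1 has close paralogs beside it on chromosome 19, Scd2, Scd3 and Scd4. Scd2 was at 9.81 to 87.8 CPM, and Scd3 and Scd4 were at most 14.2 and 3.82 CPM in any library.

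Elovl6 encodes the elongase that turns palmitate into stearate (chromosome 3, 129326035 to 129432144, plus strand). Its values were 168, 470.0, 590.0 and 212 CPM in male CRE- and 173, 244, 103 and 169 CPM in male LKO livers. Only CRE- replicates 2 and 3 stood above the male LKO range. Female Elovl6 was at 209, 154, 218 and 402 CPM in CRE- and 89.6, 114, 106 and 67.2 CPM in LKO livers, and the groups did not overlap. The log2 fold change of -1.06 in males (95% interval -1.88 to -0.25, edgeR quasi-likelihood test, Benjamini-Hochberg adjusted p = 0.347) and of -1.39 in females (95% interval -2.21 to -0.56, edgeR quasi-likelihood test, Benjamini-Hochberg adjusted p = 0.054) did not pass, the latter narrowly. The female adjusted p was 0.00817 with DESeq2's Wald test and 0.0484 with edgeR and no filter on low counts (both Benjamini-Hochberg), in a range of 0.00817 to 0.0701 over 8 settings. With edgeR and Benjamini-Hochberg adjustment it was also under 0.05 without female LKO replicate 2 (0.0498), male CRE- replicate 1 (0.049) or male CRE- replicate 3 (0.0391).

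Me1 encodes the cytosolic malic enzyme, a source of the NADPH that fatty acid synthesis uses (chromosome 9, 86463416 to 86577967, minus strand). It was at 224, 658, 324 and 285 CPM in male CRE- livers and at 268, 351, 247 and 326 CPM in male LKO livers, which lay within the CRE- range. In females Me1 was at 159, 316, 415 and 305 CPM in CRE- livers and at 68.0, 229, 145 and 36.8 CPM in LKO livers, with LKO replicate 2 among the controls and the other 3 LKO livers below them. The log2 fold change was -0.32 in males (95% interval -1.28 to 0.64, edgeR quasi-likelihood test, Benjamini-Hochberg adjusted p = 0.852) and -1.32 in females (95% interval -2.30 to -0.34, edgeR quasi-likelihood test, Benjamini-Hochberg adjusted p = 0.106). The male value was 0.10 without CRE- replicate 2. The female value was -1.84 without LKO replicate 2, and then passed (edgeR, Benjamini-Hochberg adjusted p = 0.0272). It also passed with DESeq2 and with limma-voom, at Benjamini-Hochberg adjusted p of 0.0366 and 0.0415, in a range of 0.0288 to 0.212 over 8 settings.

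Of the regulators, Srebf1 encodes SREBP-1, a transcription factor made as a membrane precursor and known to activate the genes of this pathway (chromosome 11, 60089910 to 60113407, minus strand). Its counts sum the 1a and 1c forms. Srebf1 was at 569, 718, 709.9 and 485 CPM in male CRE- livers and at 123, 496, 165 and 290.0 CPM in male LKO livers. Male LKO replicate 2 lay just above the lowest CRE- liver, and the other 3 LKO livers were below all controls. In females it was at 487, 366, 643 and 561 CPM in CRE- and 140.3, 252, 186 and 206 CPM in LKO livers, with no overlap. The male log2 fold change of -1.21 (SE 0.35) did not pass (edgeR quasi-likelihood test, Benjamini-Hochberg adjusted p = 0.174). Without male LKO replicate 2 it was -1.70 and passed (edgeR, Benjamini-Hochberg adjusted p = 0.0287), and DESeq2's Benjamini-Hochberg adjusted p was 0.0256 in a range of 0.0256 to 0.257 over 8 settings. In females Srebf1 fell by 2.63-fold (log2 fold change -1.39, SE 0.35, edgeR quasi-likelihood test, Benjamini-Hochberg adjusted p = 0.0369). Without any 1 female other than LKO replicate 2 the edgeR Benjamini-Hochberg adjusted p was 0.0567 to 0.107, and it was 0.0507 when male CRE- replicate 1, and 0.0514 when male LKO replicate 4, was left out.

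Mlxipl encodes ChREBP, which activates glycolytic and lipogenic genes in response to sugar (chromosome 5, 135118744 to 135168622, plus strand). It was at 534, 322, 293 and 302 CPM in male CRE- livers and at 256, 405, 350.0 and 470.0 CPM in male LKO livers, and the groups overlapped. Its female values were 350.5, 357, 348 and 203 CPM in CRE- and 87.0, 276, 227 and 129 CPM in LKO livers, and CRE- replicate 4 lay among the LKO values. Neither its male log2 fold change of 0.03 (95% interval -0.66 to 0.72, edgeR quasi-likelihood test, Benjamini-Hochberg adjusted p = 0.988) nor its female one of -0.81 (95% interval -1.50 to -0.11, edgeR quasi-likelihood test, Benjamini-Hochberg adjusted p = 0.16) passed. The male value took either sign as single mice were left out, between -0.12 and 0.27.

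Thrsp encodes Spot 14, a small protein induced by thyroid hormone and carbohydrate feeding and linked to lipogenesis (chromosome 7, 97062140 to 97066757, minus strand). It was at 474, 1707, 446 and 757 CPM in male CRE- livers and at 199.8, 706, 91.0 and 463 CPM in male LKO livers, with wide and overlapping ranges. In females Thrsp was at 263, 299, 662 and 942 CPM in CRE- and 9.74, 103, 145 and 126 CPM in LKO livers. Every female LKO liver was below every female CRE- liver, and LKO replicate 1 was the lowest of the 16. The log2 fold change was -1.21 in males (95% interval -2.72 to 0.30, edgeR quasi-likelihood test, Benjamini-Hochberg adjusted p = 0.626) and -2.50 in females (95% interval -4.07 to -0.92, edgeR quasi-likelihood test, Benjamini-Hochberg adjusted p = 0.0658). In females DESeq2's Wald test gave a Benjamini-Hochberg adjusted p of 0.00676, in a range of 0.00676 to 0.111 over 8 settings.

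**Figure D2:**
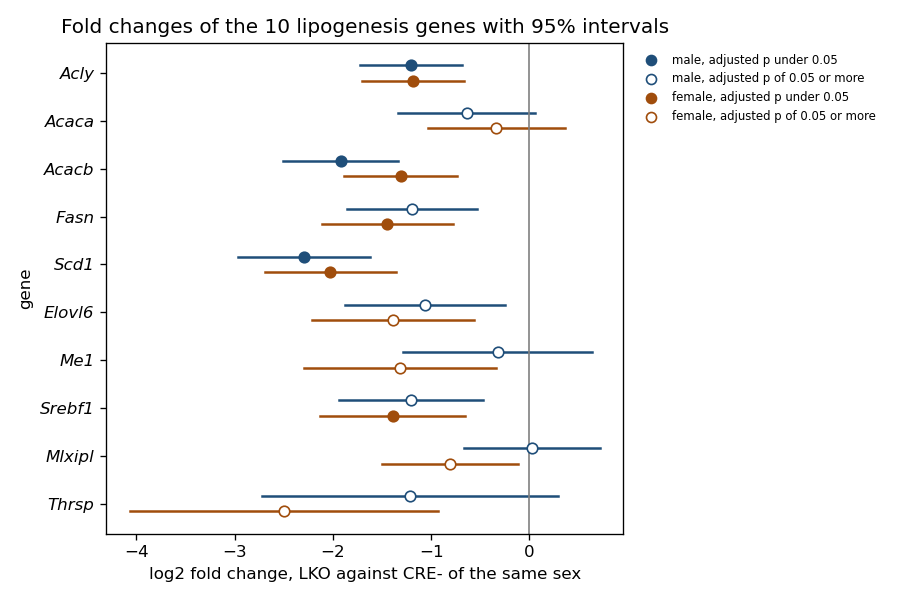
Log2 fold change of LKO against CRE- livers of the same sex (x axis) for each of the 10 genes (y axis), males in blue and females in brown, with 95% intervals from edgeR. Filled points have an adjusted p under 0.05, and Scd1 and Acacb lie farthest below 0 among the filled points of the males, at -2.29 and -1.92.

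Whether the LKO effect differed between the sexes was tested as the difference of the log2 fold changes. None of the 10 genes passed this test with edgeR, 0 did so at an unadjusted p under 0.05 (as did 16% of all genes, 6.68% with a negative difference), and 0 passed with DESeq2 or limma-voom. Over all 16742 genes edgeR called 0 and 2672 had an unadjusted p under 0.05, while DESeq2 called 371 and limma-voom 29. The differences (female minus male) ran from -1.28 for Thrsp (95% interval -3.40 to 0.83) to 0.61 for Acacb (95% interval -0.19 to 1.41). For Scd1 the difference was 0.26 (95% interval -0.64 to 1.17) and for Me1 -0.997 (95% interval -2.36 to 0.36). These intervals leave room for sizeable differences in either direction.

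Control livers of the sexes were compared to place these effects on their starting levels. This comparison uses the same CRE- livers as those above. With edgeR 0 of 10 genes passed, where 0.92% of all genes tested did (0.508% lower and 0.412% higher in females), and 0 passed with DESeq2 or limma-voom. All 10 log2 fold changes of female against male CRE- livers were below 0, with a median of -0.54, and 3 had an unadjusted p under 0.05, as did 12.7% of all genes (6.37% lower in females). These were Scd1 (-0.88), Acaca (-0.83) and Acacb (-0.63). Without male CRE- replicate 3 the values were -0.55 for Scd1, -0.22 for Acaca and -0.35 for Acacb, each the smallest in size of the fits with 1 control left out. Leaving out male CRE- replicate 2 gave 0.11 for Me1, and leaving out male CRE- replicate 1 gave 0.03 for Mlxipl, both of the other sign.

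The levels of the genes kept a wide span. In male CRE- livers the mean level ran from 24.1 RPKM for Acaca to 4589 RPKM for Scd1, with Thrsp at 768 (1549 in replicate 2 and 405 to 687 in the others), Fasn at 199, Srebf1 at 126 and Acly at 77.3 RPKM. After group means of log2 CPM were subtracted, Pearson's r was above 0 in 40 of the 45 pairs of genes over the 16 libraries, with a median of 0.507, and highest for Acly with Srebf1, at 0.918. The lowest was -0.205, for Elovl6 with Mlxipl. Over all pairs of tested genes 49.8% had an r above 0, with a median of -0.00190. Against the mean of the other 9 genes, r within groups was 0.890 for Acly, 0.830 for Fasn and 0.782 for Srebf1, and lowest for Mlxipl, at 0.139. The values of all genes in a library share its liver and its depth, and these correlations are descriptions without a test.

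Outside the 10 genes, the expression pattern most like their mean z-score of log2 CPM over the 16 libraries was that of Anks4b, with a Pearson r of 0.947. Next came Miga2 (0.917), Ghr (0.906), Gm32840 (0.897), Scd3 (0.897), Rnf103 (0.894), 1810008I18Rik (0.887), Gm20275 (0.884), Dnajc22 (0.881) and Fam47e (0.878). These r include the differences between groups. After group means were subtracted the order was Cops3 (0.893), Anks4b (0.881), Sbk1 (0.878), Naa35 (0.866), Slc25a44 (0.858), Myorg (0.855), Slc47a1 (0.815), Nol9 (0.815), Ttc23 (0.814) and Med26 (0.813). Anks4b was the only gene in both sets of 10.

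Genes around the pathway were read from lists. For these lists and the cell markers below, shares or counts over all 16742 genes tested are given first. With edgeR 0.233% fell and 0.221% rose in males, and 2.15% fell and 2.09% rose in females. DESeq2 called 175 lower and 164 higher in males and 750 and 1066 in females. Limma-voom called 93 and 55 in males and 903 and 1073 in females. At an unadjusted p under 0.05, 793 were lower and 802 higher in males, and 1530 and 2054 in females. Of 16 genes that supply acetyl-CoA and NADPH, activate fatty acids or are further desaturases and elongases, 3 fell in males and 4 in females with edgeR, which called none higher. DESeq2 called 4 and 6 lower and none higher, and limma-voom 3 and 4 lower and 1 higher, in females. At an unadjusted p under 0.05, 8 were lower and 0 higher in males, and 8 lower and 3 higher in females. Elovl5, an elongase of polyunsaturated fatty acids, fell in both sexes, with log2 fold changes of -1.48 in males (edgeR quasi-likelihood test, Benjamini-Hochberg adjusted p = 0.0494) and -1.40 in females (edgeR quasi-likelihood test, Benjamini-Hochberg adjusted p = 0.0259). The other 2 in males were Scd3 (-2.84) and Scd4 (-2.98), both near the low end of detection, and without male CRE- replicate 3 these values were -2.13 and -1.98. The other 3 in females were Acss2, which makes acetyl-CoA from acetate (-1.78, edgeR quasi-likelihood test, Benjamini-Hochberg adjusted p = 0.00882), Acsl5, which activates long-chain fatty acids (-1.20, edgeR quasi-likelihood test, Benjamini-Hochberg adjusted p = 0.00646), and Idh1, the cytosolic NADP-linked isocitrate dehydrogenase (-0.74, edgeR quasi-likelihood test, Benjamini-Hochberg adjusted p = 0.0397). Acss2 was at 509, 391, 547 and 750.0 CPM in female CRE- livers and 88.7, 208, 119 and 224 CPM in female LKO livers. The median log2 fold change of the list was -0.52 in males and -0.57 in females. Most of these results did not pass once a liver was left out. With 1 male left out, Elovl5 passed only without LKO replicate 3 and Scd3 and Scd4 only without CRE- replicate 4, with edgeR's Benjamini-Hochberg adjusted p up to 0.148, 0.134 and 0.137. With 1 female left out, Idh1 passed only without LKO replicate 2 and Elovl5 only without CRE- replicate 1 or LKO replicate 2 or 3, with edgeR's Benjamini-Hochberg adjusted p up to 0.118 and 0.0841. Over the other settings the male adjusted p (Benjamini-Hochberg) of Elovl5 was 0.000527 to 0.0873, of Scd3 7.25e-05 to 0.0582 and of Scd4 0.000388 to 0.0981, and the female one of Idh1 0.00215 to 0.0873, each above 0.05 with edgeR on that sex alone. Male Elovl5 was also above 0.05 with upper-quartile normalization and with at least 10 counts in every library, and female Idh1 with no filter on low counts. Male Scd3 and Scd4 were also above it with the replicate number as a block, and male Scd4 with limma-voom. Acss2 and Acsl5 passed in all 8 female fits. With females fitted alone Acss2 was at 0.0501 (edgeR, Benjamini-Hochberg), the highest of 8 other settings from 2.89e-06. In males Acss2 was at -1.21, without overlap between the groups, and did not pass (edgeR quasi-likelihood test, Benjamini-Hochberg adjusted p = 0.108). DESeq2 and limma-voom called it there, at Benjamini-Hochberg adjusted p of 0.00762 and 0.0351, in a range of 0.00762 to 0.128 over 8 settings.

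Among 13 genes that process SREBP precursors or work beside them, 0 passed in males with edgeR, and DESeq2 and limma-voom each called 1. At an unadjusted p under 0.05, 2 were lower in males and 3 in females, as were 4.74% and 9.14% of all genes. In females 1 fell with edgeR, DESeq2 called 1 and limma-voom 2, and the edgeR call was Insig1, which holds the precursor in the endoplasmic reticulum and is itself induced by SREBPs. Insig1 was at 529.6, 523, 610.2 and 752 CPM in female CRE- livers and 175, 217, 206 and 436 CPM in female LKO livers. LKO replicate 4 stood well above the other 3 LKO livers and still below every control. Its log2 fold change was -1.22 in females (edgeR quasi-likelihood test, Benjamini-Hochberg adjusted p = 0.0176) and -0.85 in males (edgeR quasi-likelihood test, Benjamini-Hochberg adjusted p = 0.174). In females edgeR's Benjamini-Hochberg adjusted p was up to 0.0641 with 1 female left out, above 0.05 without CRE- replicate 3 or 4, and 0.0869 with females fitted alone, the highest of 8 other settings from 0.000193. In males it was 0.0473 with males fitted alone, in a range of 0.0338 to 0.214 over 8 settings, and 0.0267 without female LKO replicate 4, a liver outside that comparison, at a value of -0.87 and with 17081 genes tested. Srebf2, the partner gene of Srebf1 that acts mainly on sterol synthesis, had log2 fold changes of -0.08 and 0.01 and Nr1h3, the gene of the oxysterol receptor LXR alpha, -0.08 and -0.33, in males and females. Both were named for their roles, after their values were seen.

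Of 10 genes known to respond to sugar through ChREBP or to insulin, 0 passed in males with edgeR, DESeq2 or limma-voom, where 1 was lower and 2 higher at an unadjusted p under 0.05. In females 1 rose with edgeR, Igfbp1, a secreted binding protein that insulin represses and fasting induces. There 3 were lower and 2 higher at an unadjusted p under 0.05, and DESeq2 and limma-voom each called 1 lower and 1 higher. Of all genes 9.14% were lower in females at the unadjusted limit and 2054 of 16742 higher, and 2.09% rose with edgeR. Igfbp1 was at 9.01, 14.5, 11.96 and 15.3 CPM in male CRE- livers and 84.9, 16.4, 96.8 and 28.7 CPM in male LKO livers. In females it was at 41.2, 28.5, 25.0 and 28.5 CPM in CRE- and 117, 62.8, 104 and 728 CPM in LKO livers. All LKO livers were above all controls of their sex, and female LKO replicate 4 was far above the rest. The log2 fold change was 2.16 in males (edgeR quasi-likelihood test, Benjamini-Hochberg adjusted p = 0.237) and 3.04 in females (edgeR quasi-likelihood test, Benjamini-Hochberg adjusted p = 0.0266). Without female LKO replicate 4 the female value was 1.62, and edgeR's Benjamini-Hochberg adjusted p was 0.066 in females and 0.0368 in males. The female p was also above 0.05 without female CRE- replicate 2, 3 or 4, up to 0.0903, and with females fitted alone (0.0758, the highest of 8 other settings from 0.00085).

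In glycerolipid assembly, 0 of 9 genes passed in males with edgeR or limma-voom, DESeq2 called 2, and 3 were lower at an unadjusted p under 0.05. In females 6 were lower at that limit, as were 9.14% of all genes (4.74% in males). DESeq2 called 5 lower in females and limma-voom 4, beside 750 and 903 of all 16742 genes. With edgeR 3 fell there, where 2.15% of all genes did. The 3 were Gpam, the acyltransferase of the first step (-1.18, edgeR quasi-likelihood test, Benjamini-Hochberg adjusted p = 0.0408), Dgat2, an acyltransferase of the last step (-0.96, edgeR quasi-likelihood test, Benjamini-Hochberg adjusted p = 0.0484), and Pnpla3, a lipid droplet protein induced by feeding (-2.77, edgeR quasi-likelihood test, Benjamini-Hochberg adjusted p = 0.00325). Pnpla3 was at 83.9, 29.9, 49.2 and 47.0 CPM in female CRE- livers and 2.92, 8.35, 8.08 and 11.5 CPM in female LKO livers. In males it was at 24.3, 34.7, 20.9 and 20.3 CPM in CRE- and 8.05, 13.4, 6.16 and 12.8 CPM in LKO livers. The values did not overlap in either sex, and the male log2 fold change was -1.31 (edgeR quasi-likelihood test, Benjamini-Hochberg adjusted p = 0.177). In males Gpam was at -1.05 and Dgat2 at 0.19. The sex differences of Gpam (-0.13), Dgat2 (-1.14) and Pnpla3 (-1.46) did not pass (edgeR quasi-likelihood test, Benjamini-Hochberg adjusted p = 0.904, 0.204 and 0.231). The female Pnpla3 result passed without any 1 female, while Gpam passed only without LKO replicate 4 and Dgat2 only without LKO replicate 2, with edgeR's Benjamini-Hochberg adjusted p up to 0.118 and 0.139. Over 8 other settings the female adjusted p (Benjamini-Hochberg) of Gpam was 0.00487 to 0.0961, above 0.05 with edgeR on females alone. That of Dgat2 was 0.00706 to 0.0844, above 0.05 with edgeR on females alone, with upper-quartile normalization, with no filter on low counts and with at least 10 counts in every library.

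In a list named for lipid storage and PPAR gamma targets, 1 of 9 genes fell in males with edgeR, Mfsd2a, a transporter of lysophosphatidylcholine. No other gene of that list passed in males, and whether Mfsd2a belongs to either class was not tested. With edgeR 0.233% of all genes fell in males. Mfsd2a was at 53.6, 116, 55.4 and 47.8 CPM in male CRE- livers and 8.36, 3.81, 3.03 and 5.29 CPM in male LKO livers. Its log2 fold change was -3.73 in males (edgeR quasi-likelihood test, Benjamini-Hochberg adjusted p = 0.0029) and -0.58 in females (edgeR quasi-likelihood test, Benjamini-Hochberg adjusted p = 0.515), where the groups overlapped. The male result passed without any 1 male and under 8 other settings. The female value was -1.31 without LKO replicate 2 (edgeR, Benjamini-Hochberg adjusted p = 0.0585) and -1.13 with limma-voom (Benjamini-Hochberg adjusted p = 0.0749, the lowest of 8 other settings up to 0.578). In females 0 of the 9 passed with edgeR, DESeq2 or limma-voom, and 1 was higher at an unadjusted p under 0.05.

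Of 12 genes of a sterol synthesis list 0 passed in either sex with edgeR, while DESeq2 called 1 in males and 0 in females and limma-voom 1 in each. At an unadjusted p under 0.05, 4 of them were lower in males and 2 in females, as were 4.74% and 9.14% of all genes. The medians of the 12 were -0.62 and -0.31. Among the 12 were Dhcr7, of the last step of cholesterol synthesis (-0.91 and -0.76) and Hmgcs1, an early enzyme (-0.65 and -0.31), in males and females. Dhcr7 passed in females without LKO replicate 4, at -1.04 (edgeR, Benjamini-Hochberg adjusted p = 0.0493). Of the 6 subunit genes of AMPK, the kinase that inhibits acetyl-CoA carboxylase, 0 passed with edgeR, DESeq2 or limma-voom in either sex. Of these, 1 was lower at an unadjusted p under 0.05 in males, Prkag2 (-0.40), and 0 in females, where it was at -0.29. In males and females Prkab1 was at -0.04 and -0.21 and Prkag1 at 0.17 and -0.21.

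**Figure D3:**
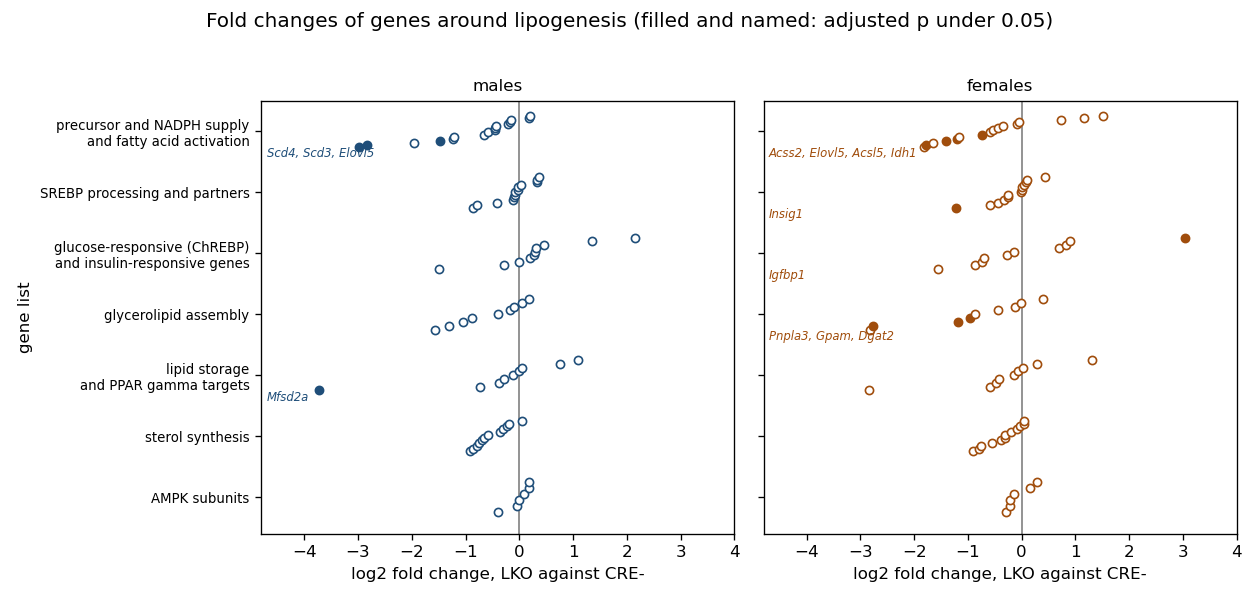
Log2 fold change of LKO against CRE- livers (x axis) for each tested gene of 7 lists around lipogenesis (y axis), males at left and females at right. Each point is a gene, and filled points, named in each list, have an adjusted p under 0.05, and Mfsd2a is the lowest in males at -3.73 and Igfbp1 the highest in females at 3.04.

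Markers of liver cell types passed in some comparisons, and their part in the lower lipogenesis genes was not tested. Hepatocytes are the main site of this pathway in the liver. Of 6 hepatocyte markers the symbol Tf was not in the table, and of the other 5, 0 passed with edgeR in either sex. At an unadjusted p under 0.05, 3 were lower in females and 1 in males, as were 9.14% and 4.74% of all genes. DESeq2 called 2 in females, limma-voom 1, and neither any in males. Their summed level was 109810.0, 106917, 112023 and 128232 CPM in female CRE- livers and 48002, 87204, 84505 and 64614 CPM in female LKO livers, most of it Alb, and these groups did not overlap. In males the sum was 66537, 91113, 103031 and 91335 CPM in CRE- and 60718, 70913, 86972 and 72262 CPM in LKO livers, with overlap. The median log2 fold change of the markers was -0.76 in females and -0.15 in males, beside -1.35 and -1.20 for the lipogenesis genes. No hepatocyte marker was at 0 in any library.

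Adipocytes also express this pathway. Of 7 adipocyte markers 0 passed with edgeR or DESeq2 in either sex, and limma-voom called 1, lower in females. At an unadjusted p under 0.05, 2 were higher in males, and in females 1 was higher and 1 lower. Their summed level was 27.2, 47.6, 36.9 and 55.5 CPM in male CRE-, 24.1, 126, 38.7 and 134 CPM in male LKO, 30.7, 27.9, 24.9 and 34.5 CPM in female CRE- and 20.9, 52.8, 24.1 and 119.8 CPM in female LKO livers. Fabp4 was the most abundant on average, Cfd reached 103 CPM in male LKO replicate 2, and the groups overlapped in both sexes. In female LKO replicate 4 most of the sum was Fabp4, at 109 CPM. Adipoq, Lep, Plin1 and Retn were at 0 in both of these livers. Among the defining markers, Lep was at 0 in all male CRE-, 3 of 4 male LKO and all female LKO livers, Plin1 in all male CRE-, 2 male LKO and 3 female LKO livers, and Adipoq in 3 male CRE-, 2 male LKO and 1 female LKO livers. None of the 7 was at 0 in a female CRE- liver.

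Of 6 macrophage markers 1 rose in females with edgeR, Adgre1 (2.15, edgeR quasi-likelihood test, Benjamini-Hochberg adjusted p = 0.0451). DESeq2 called 4 of the 6 higher there and limma-voom 5, beside 1066 and 1073 of all 16742 genes. All 6 were higher at an unadjusted p under 0.05, as were 2054 of all genes, and with edgeR 2.09% of all genes rose. The summed level of the macrophage markers, with Lyz2 the most abundant on average, was 622, 435, 469.9 and 753 CPM in female CRE- and 2689.8, 789.5, 1610.1 and 1133 CPM in female LKO livers, without overlap, and none was at 0. Without LKO replicate 1 the value of Adgre1 was 1.21 (edgeR, Benjamini-Hochberg adjusted p = 0.189), and this p was above 0.05 without any 1 female other than LKO replicates 2 and 4. In males the sum was 769.7, 355, 208 and 1108 CPM in CRE- and 985, 518, 555 and 493 CPM in LKO livers, and 0 passed with edgeR, DESeq2 or limma-voom or had an unadjusted p under 0.05.

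Of 4 tested neutrophil markers 1 rose in females with edgeR, Mpo (5.23, edgeR quasi-likelihood test, Benjamini-Hochberg adjusted p = 0.0332). DESeq2 called 4 higher in females and limma-voom 2, and all 4 were higher there and lower in males at an unadjusted p under 0.05. At that limit 2054 of all 16742 genes were higher in females and 4.74% lower in males, and with edgeR 2.09% rose in females. The sum of the neutrophil markers, with S100a9 the most abundant on average, was 33.7, 18.2, 15.2 and 14.4 CPM in female CRE- and 113, 39.7, 53.8 and 506 CPM in female LKO livers. It was 74.2, 18.4, 15.1 and 135 CPM in male CRE- and 24.1, 15.3, 11.7 and 11.02 CPM in male LKO livers. Ly6g, which had too few counts to be tested, was at 0 in all 4 male LKO livers. It was also at 0 in male CRE- replicates 2 and 3 and in female CRE- replicates 1, 3 and 4. With edgeR's Benjamini-Hochberg adjustment Mpo was above 0.05 without female CRE- replicate 2, 3 or 4 or LKO replicate 1 or 4, up to 0.114, and its value was 6.61 without CRE- replicate 1 and 4.20 without LKO replicate 4. In males 0 passed with edgeR or limma-voom, and DESeq2 called 1.

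Of 4 proliferation genes 3 rose in females with edgeR, where 2.09% of all genes did. These were Top2a, Ccnb1 and Cdk1, while DESeq2 called 4 higher and limma-voom 3. The sum with Mki67, the most abundant on average, was 8.78, 6.72, 4.02 and 15.8 CPM in female CRE- and 71.2, 12.8, 27.9 and 28.1 CPM in female LKO livers. With edgeR's Benjamini-Hochberg adjustment each lost its place in at least 4 of the 8 fits without 1 female, up to 0.139 for Top2a without LKO replicate 1, where its value was 1.76 (3.04 without CRE- replicate 4). In males that sum was 10.2, 4.50, 19.5 and 7.39 CPM in CRE- and 12.1, 6.83, 11.5 and 4.11 CPM in LKO livers, and 0 passed with edgeR, DESeq2 or limma-voom or had an unadjusted p under 0.05. Of 5 endothelial markers 1 rose in females with edgeR, Cdh5, while DESeq2 called 2 higher and limma-voom 1, and the sum, with Stab2 the most abundant on average, was 141, 177, 179 and 163 CPM in CRE- and 335, 181, 189.7 and 263 CPM in LKO livers. Cdh5 passed in 4 of those 8 fits, and in males 0 endothelial markers passed with any of the 3 tools or had an unadjusted p under 0.05. None of the proliferation or endothelial genes was at 0 in any library. No marker of T and B cells (6), stellate cells and fibroblasts (6) or cholangiocytes (5) passed with edgeR or DESeq2 in either sex or had an unadjusted p under 0.05, and limma-voom called 1 of these, a stellate or fibroblast marker, in females. Female LKO replicate 1, the lowest of its group for Gcgr, Acly, Acacb, Fasn, Scd1, Srebf1, Mlxipl and Thrsp, had the lowest hepatocyte sum and the highest macrophage and proliferation sums of the female livers.

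The sequence before the starts of the 10 genes was read from RefSeq on GRCm38.p6, a different build from that of the counts. The windows hold 250 bases before a start and 50 after it, and 13 windows matched 9 of the 10 genes, all except Scd1. Each was searched on both strands for 5 motifs. CCAAT, the box bound by NF-Y, was in 8 windows of 7 genes, and in 37.4% of all 32851 windows. GGGCGG, the GC box bound by Sp1, was in 5 windows of 4 genes, and in 35.7% of all windows. CACGTG, the E-box, was in 1 window, of Mlxipl, as in 7.15% of all windows. TCACNCCAC, a sterol regulatory element, was in 1 other window of Mlxipl, as in 1.24% of all windows. The perfect direct repeat known to bind LXR with its partner RXR was in 0 windows of these genes and in 0.0152% of all. A match describes the letters only.

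The windows of Fasn, Acly, Acacb and Srebf1, which passed in a LKO comparison, are shown, 1 for each, 5′ to 3′ on the strand of the gene. Capitals mark CCAAT and GGGCGG, which read ATTGG and CCGCCC where they lie on the other strand. The Fasn window (chr11:120824498-120824797, minus strand) holds 3 CCAAT motifs, of which the last 2 overlap on opposite strands, and no GGGCGG. The Acly window (chr11:100527951-100528250, minus strand) holds 4 GGGCGG motifs and 1 CCAAT. The Acacb window (chr5:114165268-114165567, plus strand) holds 1 CCAAT. The Srebf1 window (chr11:60210422-60210721, minus strand), 1 of 3 for that gene, holds 2 GGGCGG motifs and 1 CCAAT.
Fasn: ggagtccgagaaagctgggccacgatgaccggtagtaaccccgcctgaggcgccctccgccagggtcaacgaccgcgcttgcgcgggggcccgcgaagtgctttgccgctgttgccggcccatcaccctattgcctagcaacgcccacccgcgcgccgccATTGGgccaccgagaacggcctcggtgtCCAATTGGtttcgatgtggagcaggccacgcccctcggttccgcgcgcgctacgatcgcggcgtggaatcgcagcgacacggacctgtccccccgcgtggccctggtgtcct
Acly: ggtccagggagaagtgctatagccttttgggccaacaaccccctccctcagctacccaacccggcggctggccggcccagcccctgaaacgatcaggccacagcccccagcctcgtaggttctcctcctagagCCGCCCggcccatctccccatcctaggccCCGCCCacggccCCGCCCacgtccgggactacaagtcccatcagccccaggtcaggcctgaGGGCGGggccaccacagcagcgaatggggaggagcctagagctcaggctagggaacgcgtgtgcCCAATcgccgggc
Acacb: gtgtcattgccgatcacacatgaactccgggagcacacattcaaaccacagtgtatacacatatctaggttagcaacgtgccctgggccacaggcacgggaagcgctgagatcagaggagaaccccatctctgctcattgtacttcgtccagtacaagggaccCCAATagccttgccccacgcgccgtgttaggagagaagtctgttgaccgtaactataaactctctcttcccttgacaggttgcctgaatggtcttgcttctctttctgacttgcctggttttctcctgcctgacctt
Srebf1: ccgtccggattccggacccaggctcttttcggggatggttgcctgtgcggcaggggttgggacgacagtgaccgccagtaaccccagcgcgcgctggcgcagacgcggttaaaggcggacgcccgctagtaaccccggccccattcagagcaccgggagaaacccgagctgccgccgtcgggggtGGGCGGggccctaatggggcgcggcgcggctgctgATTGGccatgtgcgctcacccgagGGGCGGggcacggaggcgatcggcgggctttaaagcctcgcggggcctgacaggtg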

How the data were processed

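The authors aligned paired reads from poly-A-selected liver RNA (NovaSeq X) to GRCm39 with STAR 2.7.1a. They deposited a count of reads for each gene and library, made with strand-specific featureCounts of Subread 2.0.6 and not normalized. The rest was computed from these counts in R 4.3.3. Genes were filtered by filterByExpr (minimum count 10), libraries scaled by TMM, and the 4 groups fitted together with edgeR 4.0.16, using its quasi-likelihood test with Benjamini-Hochberg adjustment over all genes tested. Log2 CPM used a prior count of 2, and RPKM the gene lengths of the table. Intervals are 95% intervals from the same fit. The alternatives were DESeq2 1.42.0, limma 3.58.1 (voom with sample quality weights), RLE and upper-quartile scaling, no filter, at least 10 counts in every library, each sex or genotype fitted alone, a replicate block, and leaving out each library. The genes named are the 10 lipogenesis genes, Gcgr, the genes of each list that passed (otherwise up to 3 with the smallest p), and the 10 most similar genes by each measure, beside those said to be chosen later. The members and lists were chosen with earlier results of these data known. The statistical steps were tested on simulated data. Promoter windows came from RefSeq.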

Additional observations from a re-analysis of the deposited data

Results flagged for a closer look

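In each group of 4 livers, the highest or lowest CPM of a named gene was compared with its nearest neighbour, and a liver stands out here when that gap takes up most of the range of its group (above Dixon's 95% critical value). Chance gives about 1 in 20 groups, or 5.8 of the 116 examined, and 10 were found.

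Among the lipogenesis genes, Acaca was at 211.2 CPM in male LKO replicate 2, against 144 to 155 CPM in the other 3. Mlxipl stood out in both control groups, at 534 CPM in male CRE- replicate 1 (others 293 to 322 CPM) and at 203 CPM in female CRE- replicate 4 (others 348 to 357 CPM). Gcgr was at 127 CPM in male CRE- replicate 3, against 190 to 193 CPM in the other male controls.

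Of the genes around the pathway, 3 stood out in female LKO replicate 4. There Insig1 was at 436 CPM (others 175 to 217 CPM), Igfbp1 at 728 CPM (others 62.8 to 117 CPM) and Gpam at 319 CPM (others 124 to 154 CPM). Mfsd2a was at 116 CPM in male CRE- replicate 2, against 47.8 to 55.4 CPM in the other male controls. Acsl5 was at 295 CPM in male LKO replicate 1 (others 388 to 403 CPM), and Scd3 at 2.47 CPM in female CRE- replicate 2 (others 3.09 to 3.21 CPM). The cause of these values was not tested.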

How the results depend on the processing

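All log2 fold changes of the 10 lipogenesis genes between LKO and CRE- livers kept their sign under the 8 settings other than leaving out a library. Scd1 in both sexes and Acacb in males passed under every setting and without any 1 library. Of the fold changes of all named genes under those settings, 690 kept sign and side of the threshold, 23 newly passed, 25 no longer passed and 3 changed sign. With 1 library left out these numbers were 1388, 13, 120 and 31.

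The number of genes called depended on the method, and the cause was not tested. In males edgeR called 76, DESeq2 339 and limma-voom 148, and leaving out 1 library gave 26 to 111. Of the 10 lipogenesis genes 3 were called in males, 5 by DESeq2, and 2 to 4 with 1 library left out. In females edgeR called 710, DESeq2 1816, limma-voom 1976, and edgeR with females alone 119, and leaving out 1 library gave 87 to 1310. Of the 10 genes 5 were called in females, 8 by DESeq2, and 1 to 7 with 1 library left out. For the sex difference edgeR called 0, DESeq2 371, limma-voom 29 and edgeR with no filter 12, and leaving out 1 library gave 0 to 14. For female against male CRE- livers edgeR called 154, DESeq2 509, limma-voom 329, edgeR on the CRE- livers alone 249 and edgeR on genes with at least 10 counts in every library 78, and leaving out 1 library gave 68 to 213.

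With the replicate number as a block, 63 genes were called in males (3 of the 10) and 1244 in females (7 of the 10), 0 for the sex difference and 161 between the controls. Of the named genes, Thrsp (-2.69), Me1 (-1.49), Dhcr7 (-0.78) and Scd3 (-2.04) newly passed in females, in males Scd3 (-2.66) and Scd4 (-2.59) did not pass with it, and no other call between LKO and CRE- livers changed. The labels do not say that a number marks the same litter, batch or day. For male CRE- replicate 4 and female LKO replicates 3 and 4 the library names carry other numbers than the labels. The block and the pairs below use the labels, and a block on the library names was not fitted. Over 24 pairs of libraries with the same number, r of the gene values after group means were subtracted ran from -0.250 to 0.332, with a median of 0.0926 and 11 pairs over 0.1. Over 72 pairs with different numbers it ran from -0.292 to 0.344, with a median of -0.0203 and 12 over 0.1. Between CRE- and LKO livers, 3 of the 4 same-number pairs were over 0.1 in each sex, and not every library correlated best with its own number.

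Some values changed sign, and the cause was not tested. In males, Me1, at -0.32 with all libraries, ran from -0.51 to 0.10 with 1 library left out (0.10 without CRE- replicate 2). Mlxipl ran from -0.12 to 0.27, at -0.0216, -0.0817 and -0.0469 without CRE- replicates 2, 3 and 4 and at -0.0313 and -0.12 without LKO replicates 2 and 4. Dgat2 ran from -0.025 (without LKO replicate 2) to 0.41, and Prkab1 from -0.088 to 0.0183 (without CRE- replicate 4, and 0.00862 without LKO replicate 3).

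In the sex difference, limma-voom gave -0.0927 for Acly, -0.196 for Acaca and -0.108 for Scd1. Acly ran from -0.13 to 0.24 with 1 library left out, below 0 without male CRE- replicate 2 (-0.0105) or 3 (-0.114), male LKO replicate 1 (-0.13) or 3 (-0.0471), female CRE- replicate 2 (-0.0889) or female LKO replicate 2 (-0.0637). Without male CRE- replicate 3 Acaca was at -0.31 and Scd1 at -0.0492, the lowest of ranges up to 0.52 and 0.48. Elovl6 ran from -0.65 to 0.0567 (without female CRE- replicate 4) and Srebf1 from -0.40 to 0.32 (without male LKO replicate 2). Elovl5 ran from -0.15 (without male LKO replicate 1) to 0.32, at -0.00136 without female CRE- replicate 1 and -0.12 without female LKO replicate 2. Igfbp1, at 0.88 with all libraries, ran from -0.53 (without female LKO replicate 4) to 1.27. Gpam ran from -0.51 to 0.0463 (without female LKO replicate 1), at 0.00243 without male CRE- replicate 1 and 0.0401 without male LKO replicate 2. Dhcr7 ran from -0.11 (without female LKO replicate 4) to 0.44, at -0.0555 without male CRE- replicate 4. Prkag2 was at -0.00126 without male CRE- replicate 3. Between the controls, Me1, at -0.32 with all libraries, ran from -0.52 to 0.11 (without male CRE- replicate 2) and Mlxipl from -0.32 to 0.0333 (without male CRE- replicate 1).

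The data are counts of RNA from whole liver pieces of 4 mice a group, so effects smaller than the spread between mice are not resolved. Protein, enzyme activity and fatty acid synthesis were not measured here. Cell composition was read only through marker genes.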
